A study of Mus musculus with 16 samples.

Results

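The muscle atrophy and autophagy genes described here are 10 genes, Fbxo32, Trim63, Foxo1, Foxo3, Map1lc3b, Sqstm1, Bnip3, Gabarapl1, Ulk1 and Ctsl, out of 21154 genes with a RefSeq-named probe on the array. They were chosen by name, with earlier results of these data known. A probe was taken for a gene when its RefSeq accession led to that symbol, and where a gene had several probes the one with the highest mean over all arrays was used, so 10 of 14 probes carry the values below. Total RNA came from the ventricles of female mice and was hybridised to one-colour Agilent expression arrays, 1 array per sample, 16 in all. The 4 groups of 4 mice were nulliparous Npr1+/+ (wild-type), Npr1+/+ at 2 weeks of lactation, nulliparous Npr1-/- (knockout), and Npr1-/- at 2 weeks of lactation. Npr1 encodes the receptor for the atrial and B-type natriuretic peptides and makes cyclic GMP. The knockout is given as Npr1-/- with no tissue named, each group is 4 independent mice, and age, strain background and pup number are not given in the sources used here.

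Muscle loses protein by 2 main routes. In the ubiquitin-proteasome route, E3 ligases such as atrogin-1 (Fbxo32) and MuRF1 (Trim63) tag muscle proteins for the proteasome, and both ligases are transcribed under the control of FoxO factors. In macroautophagy, a kinase complex built around Ulk1 starts a double membrane, ATG8-family proteins such as LC3B and GABARAPL1 are attached to it, receptors such as p62 (Sqstm1) and BNIP3 bring cargo, and lysosomal proteases such as cathepsin L (Ctsl) digest the contents. The heart uses both routes to renew sarcomere proteins and mitochondria, and insulin, growth factor and nutrient signals hold them down through Akt and mTOR.

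Promoter sequences from RefSeq (mouse build GRCm38.p6), 250 bases before to 50 bases after the gene start, were matched for 9 of the 10 genes. The set held no promoter of Fbxo32, so that gene was not searched. They were searched on both strands for GTAAACA, the core recognised by FoxO factors, and for CACGTG, an E-box bound by basic helix-loop-helix factors. GTAAACA was present in 1 of 9, Trim63, against 3.65% of 32851 promoters in the table. CACGTG was present in 2 of 9, Bnip3 and Ctsl, against 7.15% of those promoters. A match is a description of these letters and not a binding site. The 3 promoters with a match are shown because they belong to genes that were called in the lactation comparison, written 5′ to 3′ on the gene's strand with the match in capitals. Trim63 is at chr4:134314870-134315169 on the plus strand with the match 194 bases before the start, where it reads as the reverse complement. Bnip3 is at chr7:138909457-138909756 on the minus strand with the match 108 bases before the start. Ctsl is at chr13:64370471-64370770 on the minus strand with the match 236 bases before the start.
Trim63: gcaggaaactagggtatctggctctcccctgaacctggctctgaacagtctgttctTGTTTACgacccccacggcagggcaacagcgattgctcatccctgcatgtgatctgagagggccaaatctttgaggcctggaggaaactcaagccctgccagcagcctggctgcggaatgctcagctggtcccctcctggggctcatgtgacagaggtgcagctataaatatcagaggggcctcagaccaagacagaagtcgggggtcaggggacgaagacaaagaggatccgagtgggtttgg
Bnip3: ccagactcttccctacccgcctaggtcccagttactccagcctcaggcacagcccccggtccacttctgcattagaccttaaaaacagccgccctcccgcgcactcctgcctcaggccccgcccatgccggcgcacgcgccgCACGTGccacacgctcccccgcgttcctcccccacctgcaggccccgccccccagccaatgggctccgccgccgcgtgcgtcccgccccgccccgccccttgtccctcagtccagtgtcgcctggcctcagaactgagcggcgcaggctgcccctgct
Ctsl: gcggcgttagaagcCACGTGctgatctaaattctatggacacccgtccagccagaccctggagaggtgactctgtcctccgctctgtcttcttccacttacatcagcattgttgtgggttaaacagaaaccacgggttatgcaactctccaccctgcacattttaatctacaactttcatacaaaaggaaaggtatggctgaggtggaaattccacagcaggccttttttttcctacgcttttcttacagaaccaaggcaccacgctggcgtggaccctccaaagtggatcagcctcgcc

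Levels are log2 processed signals minus the array's own 75th percentile, so a level of 0 equals that percentile; levels of different probes are not comparable with each other, and differences are log2 differences of group means. Each of the 10 genes passed the background test on every array; the number of arrays limits the precision. The probe for Npr1 itself was near background, passing on 9 of 16 arrays, with group means of -4.11 ± 0.36 and -3.96 ± 0.50 in nulliparous and lactating wild-type and -3.91 ± 0.18 and -3.94 ± 0.27 in knockout (SD, n = 4), so it does not separate the genotypes and does not check the labels. Of all genes, 14060 were well above background throughout at least 1 group and were tested. The array of nulliparous knockout replicate 4 differed most from its group. Its 75th percentile of raw signal was 284, against 165 to 221 on the other nulliparous arrays and 278 to 347 on the lactating ones. On it, 71.9% of all tested genes lay outside the range of the other 3 arrays of its group. Nulliparous wild-type replicate 3 followed with 69.2%. The percentile was higher on every lactating array than on those other nulliparous arrays. Scaling by it therefore takes more off the lactating arrays. How much of a lactation difference comes from this step was not tested. The 10 cardiomyocyte markers were above background in every group, with a mean level of 8.60 to 8.91 over the 16 arrays; with lactation 3 were higher and 2 lower in wild-type (median -0.04), and 2 were higher and 6 lower in knockout (median -0.29).

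Markers of other cell types also moved with lactation, and their part in the results on the 10 genes was not tested. Skeletal muscle also makes Fbxo32 and Trim63. Of its 9 markers, Myh1, Myh4 and Actn3 were above background on 0 of 16 arrays. In wild-type, 3 were above background on all 4 nulliparous arrays and 5 on all 4 lactating arrays. In knockout these counts were 4 and 5. The mean level of the list was -2.32 to -2.09 in nulliparous and -2.94 to -2.52 in lactating wild-type. In knockout it was -2.44 to -2.22 and -2.83 to -2.53. This mean includes the markers at background, so its fall cannot be read as a fall of the expressed markers. The part of the array scaling in that fall was not tested. Of the 5 that were tested, 3 were lower with lactation in wild-type (median -0.39) and 1 in knockout (median -0.26). Of 4 tested atrial markers, 2 were lower and 1 higher in wild-type (median -1.82) and 3 were lower and 1 higher in knockout (median -2.41). Of 4 red cell markers, 2 were higher in wild-type and 3 in knockout. Of 8 fibroblast markers, 4 were higher and 1 lower with lactation in wild-type and 5 were higher in knockout. Macrophage markers moved with lactation, and their mean level was -0.44 to -0.09 in nulliparous wild-type, 0.95 to 1.23 in lactating wild-type, -0.40 to 0.92 in nulliparous knockout with replicate 4 the highest, and 1.22 to 1.48 in lactating knockout. In whole ventricle, fewer cells of a type and less RNA per cell cannot be told apart.

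Lactation was accompanied by a lower level of the atrogin-1 gene and higher levels of several autophagy and lysosome genes. In wild-type ventricle 6 of the 10 genes rose (Trim63, Map1lc3b, Sqstm1, Bnip3, Ulk1 and Ctsl), 1 fell (Fbxo32), and 3 did not pass the test (Foxo1, Foxo3 and Gabarapl1). Among all tested genes 50.3% were called in this comparison, 31.8% higher and 18.5% lower, so a call here is common. The median difference of the 10 genes was 0.46 against 0.10 over all genes. In knockout ventricle 3 rose (Map1lc3b, Bnip3 and Ctsl), 1 fell (Fbxo32) and 6 did not pass, with 44.1% of all genes called, 25.5% higher and 18.6% lower. The median difference there was 0.27 against 0.06 over all genes. A gene was called at a limma adjusted p under 0.05, with Benjamini-Hochberg adjustment over all tested genes. Scaling arrays by their median instead moves the all-gene median to 0.28 in wild-type and 0.24 in knockout, and raises the share of higher calls from 63.2% to 80.3% and from 57.9% to 79.2%; the 7 and 4 calls above keep their direction under it.

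**Figure D1:**
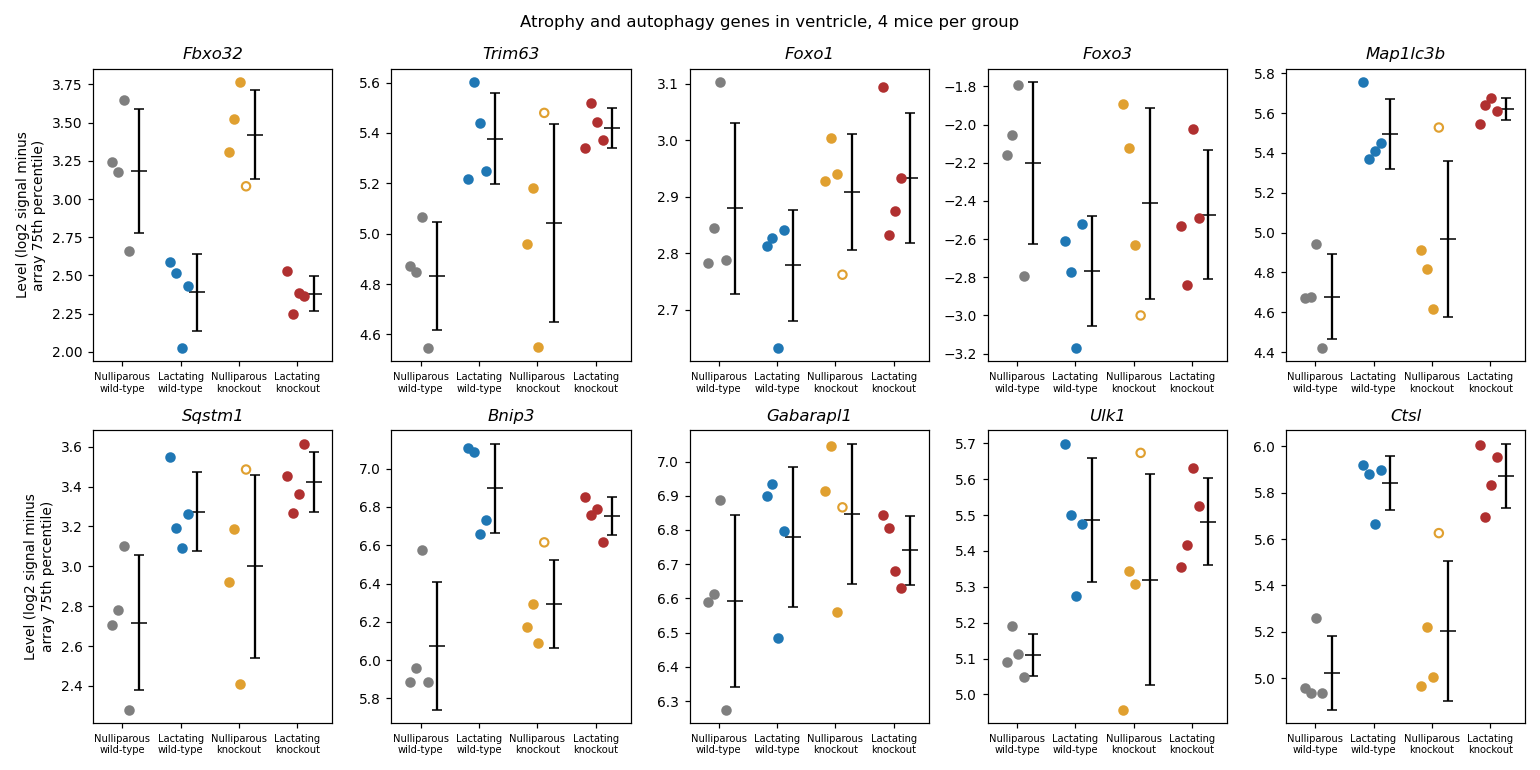
Level of each of the 10 genes on each of the 16 arrays (log2 signal relative to the array's 75th percentile; each panel has its own scale), with the group mean and SD over 4 arrays; the open circle is nulliparous knockout replicate 4. The lactating arrays lie below the nulliparous ones of their genotype for Fbxo32 and above them for Map1lc3b, Bnip3 and Ctsl.

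Fbxo32 encodes atrogin-1, a muscle-enriched F-box protein of an SCF ubiquitin ligase. In nulliparous wild-type its level was 3.24, 3.18, 3.65 and 2.66 in replicates 1 to 4, and in lactating wild-type 2.59, 2.51, 2.03 and 2.43. In the knockout it was 3.31, 3.52, 3.77 and 3.08 in nulliparous samples and 2.53, 2.25, 2.38 and 2.36 in lactating ones. Every lactating array lay below every nulliparous array of the same genotype, although the lowest nulliparous wild-type value was close to the highest lactating one. The group means were 3.18 ± 0.41 and 2.39 ± 0.25 in wild-type and 3.42 ± 0.29 and 2.38 ± 0.11 in knockout (SD, n = 4). By limma, Fbxo32 fell by 0.79 ± 0.19 (SE, adjusted p = 0.00361), a 1.73-fold lower signal, in wild-type, and by 1.04 ± 0.19 (adjusted p = 0.00126), 2.06-fold lower, in knockout. Groups did not overlap for 47.4% of all genes in the wild-type comparison (30.5% higher, 17% lower) and for 33.1% in the knockout one (19% higher, 14.1% lower). The probe is printed on 10 spots per array, whose log2 signals had an SD of 0.032 to 0.079, well under the spread between arrays. The difference was -0.66 on slide 1 and -0.93 on slide 2 in wild-type, and -1.03 and -1.05 in knockout. Scaling arrays by their median gave -0.61 (limma adjusted p = 0.0146) in wild-type and -0.86 (adjusted p = 0.00262) in knockout. Of 10 cardiomyocyte markers, 2 fell and 3 rose in wild-type, and 6 fell and 2 rose in knockout, as given above. Of 5 tested skeletal muscle markers, 3 fell in wild-type and 1 in knockout. The part of these markers in the Fbxo32 difference was not tested.

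Trim63 encodes MuRF1, the RING-finger ligase that ubiquitinates thick-filament proteins. Its level in nulliparous wild-type was 4.87, 4.85, 5.07 and 4.55, and in lactating wild-type 5.22, 5.60, 5.44 and 5.25. Nulliparous knockout samples had 4.96, 5.18, 4.55 and 5.48, and lactating knockout samples 5.34, 5.52, 5.44 and 5.37. The wild-type groups did not overlap, and the knockout groups overlapped through replicate 4 of the nulliparous group alone. Trim63 rose by 0.54 ± 0.17 (limma adjusted p = 0.0137), 1.46-fold, in wild-type; the difference in knockout was 0.38 ± 0.17 (adjusted p = 0.0779). The 2 ligase genes therefore moved in opposite directions in wild-type ventricle. A dimmer probe of Trim63 gave 0.82 ± 0.17 (adjusted p = 0.00129) in wild-type and 0.57 ± 0.17 (adjusted p = 0.0135) in knockout, which is past the threshold where the brighter probe is not. Quantile normalization ended the wild-type call (0.39, adjusted p = 0.0621). The knockout difference passed under 5 of 28 alternatives, among them median scaling (0.56, adjusted p = 0.0202).

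Foxo1 and Foxo3 encode the forkhead factors that drive both ligase genes and many autophagy genes when Akt is inactive. Their transcripts did not pass the test in either lactation comparison. Foxo1 had group means of 2.88 ± 0.15 and 2.78 ± 0.10 in nulliparous and lactating wild-type and of 2.91 ± 0.10 and 2.93 ± 0.12 in knockout, and its 16 values lay between 2.63 and 3.10. The Foxo1 difference was -0.10 ± 0.09 (limma adjusted p = 0.386) and 0.03 ± 0.09 (adjusted p = 0.844), the tightest error of the 10 genes, with 95% intervals of -0.30 to 0.10 and -0.17 to 0.22. Foxo3 was spread much more widely. Its level was -2.16, -2.06, -1.79 and -2.79 in nulliparous wild-type and -2.61, -2.77, -3.17 and -2.52 in lactating wild-type, a difference of -0.57 ± 0.26 (adjusted p = 0.083) with overlapping groups. Leaving out nulliparous wild-type replicate 4 brought that difference past the threshold (-0.765, adjusted p = 0.025), as did another background correction (-0.41, adjusted p = 0.0114), and the Foxo3 probe is dim. In knockout it was -0.06 ± 0.26 (adjusted p = 0.867), made up of -0.68 on slide 1 and 0.56 on slide 2. FoxO activity is set largely by phosphorylation and nuclear export, which arrays do not measure.

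Ulk1 encodes the kinase that starts autophagosome formation. Its level was 5.09, 5.19, 5.11 and 5.05 in nulliparous wild-type and 5.70, 5.50, 5.27 and 5.47 in lactating wild-type. The groups did not overlap, and Ulk1 rose by 0.38 ± 0.13 (limma adjusted p = 0.0251), 1.30-fold. In knockout the values were 4.96, 5.34, 5.31 and 5.67 against 5.36, 5.42, 5.63 and 5.52, a difference of 0.16 ± 0.13 (adjusted p = 0.326), and the highest nulliparous value was above all lactating ones. In wild-type the call was lost when nulliparous replicate 1 (adjusted p = 0.051), nulliparous replicate 4 (0.0567) or lactating replicate 1 (0.0785) was left out, and after quantile normalization (0.21, adjusted p = 0.176).

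Map1lc3b and Gabarapl1 encode ATG8-family proteins that are joined to the lipid of the growing autophagosome, and they differed in these data. Map1lc3b was at 4.67, 4.68, 4.94 and 4.42 in nulliparous wild-type and at 5.76, 5.37, 5.41 and 5.45 in lactating wild-type. Its knockout values were 4.91, 4.82, 4.62 and 5.53 in nulliparous and 5.55, 5.64, 5.68 and 5.61 in lactating samples. The lactating arrays were above the nulliparous ones in both genotypes, by a very small gap in knockout because of nulliparous replicate 4. Map1lc3b rose by 0.82 ± 0.16 (limma adjusted p = 0.00112), 1.76-fold, in wild-type and by 0.65 ± 0.16 (adjusted p = 0.00627), 1.57-fold, in knockout. Its probe is also printed on 10 spots, whose log2 signals had an SD of 0.026 to 0.088. On slides 1 and 2 the rise was 0.89 and 0.75 in wild-type and 0.73 and 0.57 in knockout. Gabarapl1 had group means of 6.59 ± 0.25 and 6.78 ± 0.21 in wild-type and 6.85 ± 0.20 and 6.74 ± 0.10 in knockout. Its differences were 0.19 ± 0.14 (adjusted p = 0.275) and -0.11 ± 0.14 (adjusted p = 0.555), and the groups overlapped. The wild-type difference of Gabarapl1 passed the threshold with median scaling (0.37, adjusted p = 0.0493).

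Sqstm1 encodes p62, which binds ubiquitinated cargo and LC3 and is itself degraded by autophagy. It was at 2.70, 2.78, 3.10 and 2.28 in nulliparous wild-type and at 3.55, 3.19, 3.09 and 3.26 in lactating wild-type, with 1 nulliparous array just above the lowest lactating one. Sqstm1 rose by 0.56 ± 0.21 (limma adjusted p = 0.036), 1.47-fold, in wild-type. In knockout the values were 2.92, 3.19, 2.41 and 3.49 against 3.45, 3.27, 3.36 and 3.61, a difference of 0.42 ± 0.21 (adjusted p = 0.108). The wild-type call is close to the threshold: it ended in 6 of the 8 fits that left out 1 wild-type array, namely without nulliparous replicate 1 (adjusted p = 0.0658), 2 (0.0553) or 4 (0.117) or lactating replicate 1 (0.101), 2 (0.0521) or 4 (0.0612). It also ended after quantile normalization (adjusted p = 0.075).

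Bnip3 encodes a mitochondrial outer-membrane protein that recruits LC3 for mitophagy and is a target of hypoxia signalling and of FoxO3. In nulliparous wild-type its level was 5.88, 5.96, 6.57 and 5.88, and in lactating wild-type 7.11, 7.09, 6.66 and 6.73. In knockout it was 6.17, 6.29, 6.09 and 6.62 in nulliparous and 6.85, 6.76, 6.79 and 6.62 in lactating samples. The wild-type groups were separate, and in knockout the highest nulliparous and the lowest lactating value were nearly the same. Bnip3 rose by 0.82 ± 0.16 (limma adjusted p = 0.00102), 1.77-fold, in wild-type and by 0.46 ± 0.16 (adjusted p = 0.0327), 1.38-fold, in knockout. In wild-type the rise was 1.18 on slide 1 and 0.47 on slide 2, the widest gap between slides among the genes called in that comparison. In knockout the call was lost when any of nulliparous replicates 1 (adjusted p = 0.084), 2 (0.0648) and 3 (0.0903) or lactating replicates 1 (0.0739), 2 (0.0614) and 3 (0.0653) was left out, and when a gene's probes were averaged (0.0739) or no filter on dim probes was used (0.0567).

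Ctsl encodes cathepsin L, a lysosomal cysteine protease. Its level was 4.96, 4.93, 5.26 and 4.94 in nulliparous wild-type and 5.92, 5.88, 5.67 and 5.90 in lactating wild-type. In knockout it was 4.96, 5.22, 5.004 and 5.63 in nulliparous and 6.01, 5.70, 5.84 and 5.95 in lactating samples. All lactating arrays were above all nulliparous arrays of their genotype. Ctsl rose by 0.82 ± 0.14 (limma adjusted p = 0.000327), 1.76-fold, in wild-type and by 0.67 ± 0.14 (adjusted p = 0.00193), 1.59-fold, in knockout. The rise was 0.96 and 0.68 on slides 1 and 2 in wild-type and 0.76 and 0.58 in knockout. Macrophages are rich in lysosomal proteases, and 9 of the 10 macrophage markers were also higher in lactation in each genotype, with median differences of 1.13 and 1.26. Their part in the Ctsl difference was not tested.

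**Figure D2:**
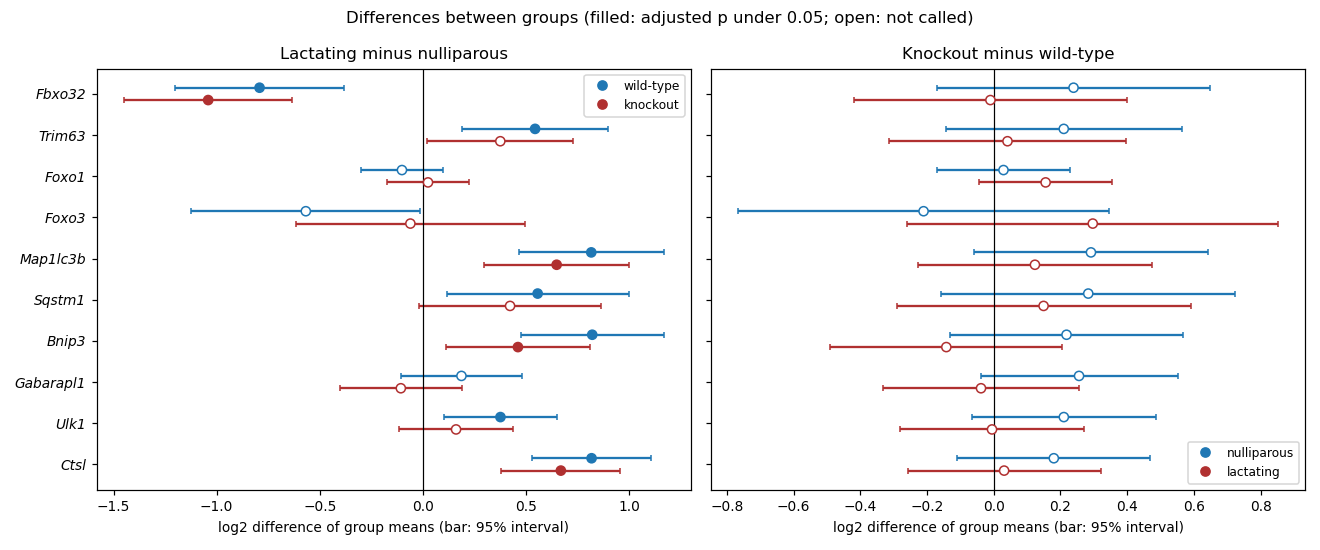
Log2 difference of group means for each gene, with its 95% interval; left, lactating minus nulliparous in each genotype; right, knockout minus wild-type in each reproductive state; filled points passed an adjusted p of 0.05. Filled points are on the left only: 7 in wild-type and 4 in knockout.

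The knockout was compared with wild-type in each reproductive state. None of the 10 genes passed the test in nulliparous ventricle, where 14 of 14060 genes were called by limma (0.0996%) and 1214 had an unadjusted p under 0.05. The differences, knockout minus wild-type, ran from -0.21 ± 0.26 for Foxo3 to 0.29 ± 0.16 for Map1lc3b, with adjusted p from 0.614 to 0.943 and the lowest unadjusted p 0.0846, for Gabarapl1. The values of 9 of the 10 genes were above 0, as were 62.7% of all genes, and the median was 0.21 against 0.05 over all genes. That median was 0.10 without nulliparous knockout replicate 4, 0.32 without nulliparous wild-type replicate 3 (54.6% of all genes above 0) and 0.14 without nulliparous wild-type replicate 4. None of the 10 genes passed in lactating ventricle either, where 28 genes were called (0.199%) and 1285 had an unadjusted p under 0.05. There the differences ran from -0.14 ± 0.16 for Bnip3 to 0.30 ± 0.26 for Foxo3, with a median of 0.04 and adjusted p from 0.690 to 0.996. The 95% intervals still allow sizeable differences: for Fbxo32 in lactating samples -0.42 to 0.40, for Map1lc3b -0.23 to 0.47, for Ctsl -0.26 to 0.32, and for Foxo3 -0.26 to 0.85. Foxo1 lies on chromosome 3, as does Npr1, and its difference was 0.03 ± 0.09 in nulliparous and 0.16 ± 0.09 (adjusted p = 0.690) in lactating samples.

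More of the 10 genes passed in wild-type than in knockout, but the difference between the genotypes in the lactation response was tested directly and none of the 10 passed, with 13 of all genes called by limma (0.0925%) and 896 at an unadjusted p under 0.05. The interaction, knockout response minus wild-type response, was -0.25 ± 0.27 for Fbxo32, -0.17 ± 0.23 for Trim63, -0.17 ± 0.23 for Map1lc3b and -0.13 ± 0.29 for Sqstm1. It was 0.13 ± 0.13 for Foxo1, -0.29 ± 0.20 for Gabarapl1, -0.36 ± 0.23 for Bnip3 (95% interval -0.85 to 0.13), -0.22 ± 0.18 for Ulk1, -0.15 ± 0.19 for Ctsl and 0.51 ± 0.37 for Foxo3 (-0.28 to 1.29). Adjusted p values were 0.836 to 0.953. The genes called in wild-type alone (Trim63, Sqstm1 and Ulk1) are therefore not shown to respond differently in the knockout. Under 28 alternatives each, their knockout lactation differences passed in 5, 3 and 1.

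On nulliparous knockout replicate 4, 9 of the 10 genes lay outside the range of the other 3 arrays of the group, all but Gabarapl1, beside the 71.9% of all genes given above. Nulliparous wild-type replicate 3 also had 9 of 10 outside its group's range, beside 69.2% of all genes. Over the other 14 arrays the count was 1 to 8 of 10, and 33.9% to 59.7% of all genes. On replicate 4 of the nulliparous knockout group, against the mean of the other 3 arrays, Map1lc3b was higher by 0.74, Sqstm1 by 0.65, Trim63 by 0.58, Ctsl by 0.56, Ulk1 by 0.47 and Bnip3 by 0.43, while Fbxo32 was at -0.45 and Foxo3 at -0.79. The values of Trim63 and Sqstm1 fell within the lactating knockout range. With the array left out, calls over all genes in the knockout lactation comparison went from 44.1% to 53.3%, and 6 of the 10 genes were called: Trim63 (0.52, limma adjusted p = 0.01) and Sqstm1 (0.59, adjusted p = 0.0234) joined Fbxo32 (-1.15), Map1lc3b (0.84), Bnip3 (0.57) and Ctsl (0.81). Macrophage markers moved on the same array, with a mean level of 0.92 as given above, and so did atrial markers, whose mean level of -1.52 on it was the lowest of all 16 arrays. Their part in these values was not tested.

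Arrays of a group also differed from each other over several of the 10 genes at a time. Nulliparous wild-type replicate 3 had the highest value of its group for 9 of the 10 genes, a median of 0.28 above the group mean, while the median of all genes on it was -0.10. Replicate 4 of the same group had the lowest value for 8 of the 10, with a median of -0.27, and lactating wild-type replicate 3 had the lowest for 8. The shares of all genes that were highest or lowest on an array were not computed, so these counts cannot be read as a trait of the 10 genes. Counted in either direction, 8 of 10 lay outside the range of the other 3 arrays on nulliparous wild-type replicate 4, beside 52.1% of all genes. On lactating wild-type replicate 3 it was 8 of 10, beside 49.8%. On nulliparous wild-type replicate 3 Fbxo32 was high together with Map1lc3b, Sqstm1, Bnip3 and Ctsl, whereas in the lactation comparison Fbxo32 moved opposite to those genes.

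**Figure D3:**
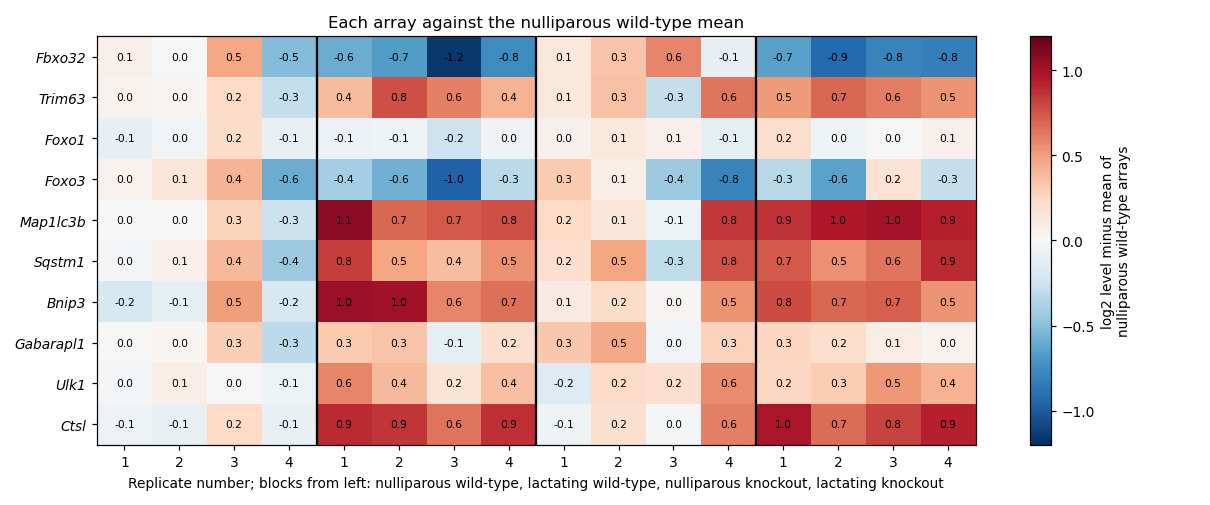
Level of each gene on each array relative to the nulliparous wild-type mean (log2 difference; red above, blue below), in blocks of nulliparous wild-type, lactating wild-type, nulliparous knockout and lactating knockout. Within the nulliparous knockout block, replicate 4 is the array on which Trim63, Map1lc3b, Sqstm1, Bnip3, Ulk1 and Ctsl are highest.

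The wider pathways were followed in 8 lists with 156 tested genes that do not include the 10. In wild-type lactation 61 of the 156 rose (39.1%) and 22 fell (14.1%), against 31.8% and 18.5% of all genes. In knockout lactation 50 rose (32.1%) and 36 fell (23.1%), against 25.5% and 18.6%. The lists were chosen with earlier results of these data known, so these shares are a description and no independent test. The values below are log2 differences from the same limma fit.

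Among 19 other ubiquitin ligase genes linked to atrophy, 6 rose and 4 fell in wild-type and 5 rose and 5 fell in knockout, with medians of 0.00 and 0.01. Fbxo31, another F-box gene, fell with Fbxo32, by 1.03 ± 0.21 (adjusted p = 0.00146) in wild-type and fell by 1.24 ± 0.21 (adjusted p = 0.000969) in knockout. Nedd4, a HECT-domain ligase, rose by 0.71 ± 0.14 and 0.60 ± 0.14, and Skp1, the SCF adaptor that binds F-box proteins, rose by 0.69 ± 0.12 and 0.40 ± 0.12; the second call was lost without nulliparous knockout replicate 3 (adjusted p = 0.0507). Trim32, a RING ligase of muscle, rose by 0.65 ± 0.14 and 0.56 ± 0.14. Ubr2 in wild-type (-0.34, adjusted p = 0.0468) and Cblb in knockout (-0.52, adjusted p = 0.0476) passed narrowly, and each call ended in most of the fits that left out 1 array. In the other genotype Ubr2 was at -0.43 (adjusted p = 0.0186), a call that 3 such fits ended, and Cblb at -0.37 (adjusted p = 0.141). With median scaling the list had 9 higher and 1 lower in wild-type and 8 and 2 in knockout. With quantile normalization it had 6 and 4 in wild-type and 5 and 4 in knockout.

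Of 31 proteasome subunit genes, 13 rose and 5 fell in wild-type and 10 rose and 7 fell in knockout, with medians of 0.14 and 0.01. Psmd8, a subunit of the regulatory particle, rose by 1.53 ± 0.20 (adjusted p = 0.00011) in wild-type and 1.09 ± 0.20 in knockout. Psmb7, a catalytic core subunit, rose by 1.45 ± 0.22 and 1.16 ± 0.22. Psmd4, the ubiquitin receptor of the regulatory particle, fell by 0.51 ± 0.10 and 0.48 ± 0.10, and Psma4, a core alpha subunit, fell by 0.39 ± 0.10 and 0.36 ± 0.10 on its brightest probe. Neither Psma4 call held when its probes were averaged (-0.035, adjusted p = 0.737, and -0.09, adjusted p = 0.377) or with median scaling (-0.204, adjusted p = 0.106, and -0.177, adjusted p = 0.166). With median scaling the counts were 17 higher and 1 lower in wild-type and 13 and 1 in knockout. With quantile normalization they were 12 and 10 in wild-type and 10 and 7 in knockout.

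The 16 autophagy initiation genes gave 5 higher and 3 lower in wild-type and 3 higher and 6 lower in knockout. Median scaling turned this balance to 6 higher and 2 lower in each genotype. With quantile normalization it was 4 higher and 5 lower in wild-type and 3 and 6 in knockout. Vmp1, a membrane protein of early autophagosomes, rose by 0.60 ± 0.13 and 0.54 ± 0.13, and Pik3c3, the lipid kinase VPS34, rose by 0.58 ± 0.18 in wild-type and was at 0.39 ± 0.18 (adjusted p = 0.0853) in knockout. Wipi1, which binds the lipid that VPS34 makes, rose by 0.40 ± 0.10 and 0.36 ± 0.10, whereas Wipi2 fell by 0.64 ± 0.11 in wild-type and 0.51 ± 0.11 in knockout. Ambra1, a Beclin 1 partner, fell by 0.49 ± 0.10 and 0.55 ± 0.10. Of the 12 tested conjugation genes, which attach ATG8 proteins to lipid, 8 rose and 0 fell in wild-type and 6 rose and 1 fell in knockout, with a median of 0.33 in each. Atg10 rose by 1.64 ± 0.33 and 1.36 ± 0.33, and Atg3, the E2-like enzyme that carries LC3, rose by 1.31 ± 0.18 and 0.97 ± 0.18. Atg7, the E1-like enzyme of the same step, was the gene lower in knockout (-0.32, adjusted p = 0.0423), beside -0.22 (adjusted p = 0.147) in wild-type. The mean of its probes turned these values to 0.12 (adjusted p = 0.36) and 0.49 (adjusted p = 0.00167). Atg4a was not above background on any array and was not tested.

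Of 12 further autophagy and mitophagy receptor genes, 6 rose and 2 fell in wild-type and 5 rose and 3 fell in knockout. Tax1bp1, a ubiquitin-binding receptor like p62, rose by 0.99 ± 0.15 and 0.77 ± 0.15, and Fundc1, a mitophagy receptor like BNIP3, rose by 0.85 ± 0.14 and 0.77 ± 0.14. Pink1, the kinase of Parkin-dependent mitophagy, fell by 0.33 ± 0.11 and 0.39 ± 0.11, and Calcoco1 fell by 0.37 ± 0.13 and 0.44 ± 0.13. Median scaling ended these 4 calls and left 6 higher and 0 lower in each genotype. Quantile normalization gave 6 and 2 in wild-type and 4 and 3 in knockout. The 24 other lysosome genes gave 15 higher and 2 lower in each genotype, with medians of 0.42 and 0.42. Ctss, cathepsin S, rose by 1.72 ± 0.29 (adjusted p = 0.000379) and 1.53 ± 0.29, Ctsh, cathepsin H, rose by 1.43 ± 0.19 and 0.65 ± 0.19, and Atp6v1b2, a subunit of the lysosomal proton pump, rose by 1.30 ± 0.17 and 1.08 ± 0.17. Tfeb, the transcription factor that drives lysosome genes, fell by 0.59 ± 0.13 in wild-type and 0.37 ± 0.13 in knockout, and Mcoln1, a lysosomal calcium channel, fell by 0.24 ± 0.09 and 0.27 ± 0.09. The knockout call of Tfeb and both of Mcoln1 ended with median scaling and in several fits that left out 1 array. Cathepsin S is abundant in macrophages, whose markers rose in both comparisons as given above; their part in the lysosome counts was not tested.

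**Figure D4:**
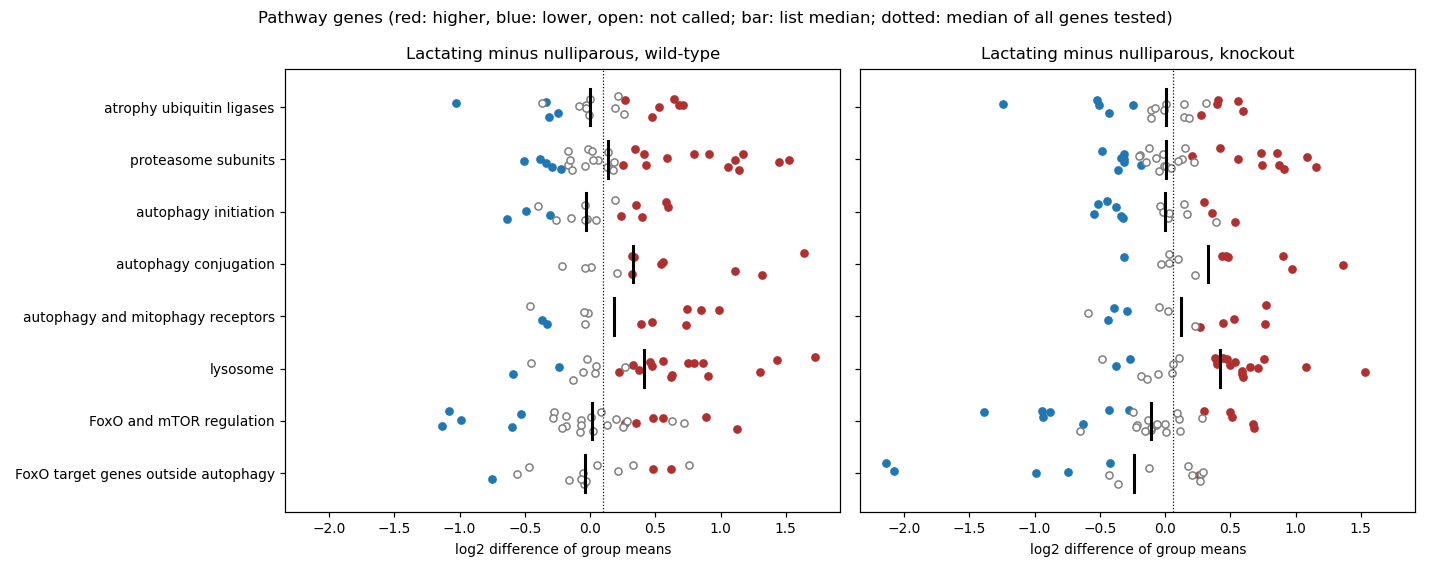
Log2 lactating minus nulliparous difference of each of the 156 pathway genes in 8 lists, in wild-type (left) and knockout (right); red points rose, blue points fell, open points were not called, the bar is the list median and the dotted line the median of all tested genes. The lysosome and conjugation medians lie to the right of the dotted line in both panels.

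The 28 tested genes of FoxO and mTOR regulation had 6 higher and 5 lower in wild-type and 5 higher and 7 lower in knockout, with medians of 0.01 and -0.11. With median scaling the counts were 10 and 5 in wild-type and 7 and 5 in knockout. With quantile normalization they were 6 and 7 in wild-type and 5 and 7 in knockout. Rheb, the small GTPase that activates mTORC1, rose by 0.89 ± 0.18 and 0.68 ± 0.18. Irs1, an adaptor of the insulin receptor, rose by 1.13 ± 0.18 and 0.68 ± 0.18 on its brightest probe, and neither call held when its probes were averaged (0.29, adjusted p = 0.189, and 0.12, adjusted p = 0.605). Foxo4, another FoxO gene, fell by 1.13 ± 0.26 (adjusted p = 0.00252) in wild-type and fell by 0.88 ± 0.26 (adjusted p = 0.0135) in knockout. Acvr2b, a receptor for myostatin and activin, fell by 1.08 ± 0.15 (adjusted p = 0.000119) and fell by 0.94 ± 0.15 (adjusted p = 0.000645). Pik3r1, a regulatory subunit of phosphoinositide 3-kinase, fell by 0.99 ± 0.30 (adjusted p = 0.0134) and fell by 0.94 ± 0.30 (adjusted p = 0.0206). Irs2 fell by 1.39 ± 0.42 (adjusted p = 0.016) in knockout and was at -0.18 ± 0.42 (adjusted p = 0.741) in wild-type, with an interaction of -1.20 ± 0.59 (adjusted p = 0.785). The knockout call of Pik3r1 was lost when nulliparous replicate 1, nulliparous replicate 2 or lactating replicate 2 of the knockout was left out. Mstn, which encodes myostatin, was above background on no array and was not tested.

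Of 14 FoxO target genes outside autophagy, 2 rose and 1 fell in wild-type and 1 rose and 5 fell in knockout, with medians of -0.04 and -0.24. With median scaling the counts were 4 and 1 in wild-type and 2 and 3 in knockout. With quantile normalization they were 2 and 2 in wild-type and 1 and 5 in knockout. Sod2, the mitochondrial superoxide dismutase, rose by 0.62 ± 0.10 (adjusted p = 0.000319) in wild-type and by 0.26 ± 0.10 (adjusted p = 0.0495) in knockout, the second at the threshold. Cat, catalase, fell by 0.75 ± 0.17 (adjusted p = 0.00243) in wild-type and fell by 0.99 ± 0.17 (adjusted p = 0.00091) in knockout; with its probes averaged the values were -0.151 (adjusted p = 0.352) and -0.294 (adjusted p = 0.08). Ccng2, a cyclin, rose by 0.48 ± 0.17 (adjusted p = 0.0316) in wild-type, a call that ended in 4 of the fits that left out 1 array, and was at 0.27 ± 0.17 (adjusted p = 0.218) in knockout. Pdk4, the kinase that turns off pyruvate dehydrogenase, fell by 2.14 ± 0.46 (adjusted p = 0.00264), 4.41-fold, in knockout and was at -0.47 ± 0.46 (adjusted p = 0.419) in wild-type; the interaction for Pdk4 was -1.67 ± 0.65 (adjusted p = 0.702).

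Across the 156 genes the genotype comparisons gave 1 call, Pck1, the gluconeogenic enzyme phosphoenolpyruvate carboxykinase. Its group mean was -2.67 ± 0.24 in nulliparous and -1.91 ± 0.36 in lactating wild-type, -3.87 ± 0.77 in nulliparous knockout and -5.95 ± 0.53 in lactating knockout, where it was not well above background on any of 4 arrays. In lactating ventricle it was 6.09-fold lower in the knockout when the knockout arrays were put at a floor, the lowest signal among probes well above background. This is no strict bound, because a probe can fail the background test at a signal above that floor. The measured difference there was -4.04 (limma adjusted p = 2.75e-05). In the knockout the measured lactation difference was -2.08 (limma adjusted p = 0.000708), with 2 of 4 nulliparous and 0 of 4 lactating arrays above background. The same floor under the lactating arrays gave 1.56-fold lower, which is no strict bound either. Some nulliparous arrays were also not above background. Adipocytes also make Pck1, and the adipocyte markers moved the same way, with a mean level of -2.14 to -1.16 in lactating wild-type and -5.33 to -4.25 in lactating knockout, where all 5 tested markers were lower. Their part in the Pck1 difference was not tested.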

How the data were processed

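The authors deposited one scanner output per array, produced by Feature Extraction (Agilent, version 10.7.3.1, per the submitters' processing notes). Its processed signal is an intensity, background-corrected by that software per the file headers, which also give a flag for signal well above background. The authors' deposited table of normalized log2 values was used as an alternative only; its values track the scanner signals (r = 1), and its exact centring is not stated. From 200 ng of RNA per sample, per the labels' protocols, Cy3-labelled cRNA was hybridised on 2 slides of 8 arrays, with 2 arrays of each group on each. Control spots were removed, spots of a probe averaged, log2 signals reduced by each array's 75th percentile, and 1 probe kept per gene (the highest mean). Names came from a RefSeq table of GRCm38.p6: 28026 of 55681 probes were named, and coordinates in the headers (mm9) were not used. Genes whose probe failed the flag on some array of every group were dropped, which left 14060 of 21154 genes.

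limma 3.58.1 in R 4.3.3 (lmFit and eBayes, 12 residual degrees of freedom) fitted 4 group means to all 16 arrays, with Benjamini-Hochberg adjustment over all kept genes. The fit was also run on simulated arrays with noise independent between genes and few genes changed. Those arrays lack the shifts shared by many genes seen here, so that run checks the calculation and not the calls. Same-numbered samples were not treated as pairs. The effect of 12 other processing choices is given at the end. All 10 genes are described; of each pathway list, up to 2 called genes with the largest rise and fall per lactation comparison are named, with their values in both genotypes, and called genes of the other comparisons. The members and lists were chosen with earlier results of these data known. The array number per group, 4, limits the precision.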

Additional observations from a re-analysis of the deposited data

Results flagged for a closer look

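In 40 checks for a value far from the other 3 of its group, 4 stood out. Chance alone gives about 1 in 20 per check. The checks were not independent, since several of the genes moved together on an array, so an excess over chance cannot be read from this count. In nulliparous wild-type replicate 3, Bnip3 was at 6.57 and Ctsl at 5.26, each above the other 3 arrays of the group. In lactating wild-type replicate 3, Foxo1 was at 2.63 and Ctsl at 5.67, each below the other 3. All 4 lay on these 2 arrays, both of slide 2. For Pck1 the lactation response differed between the genotypes by the interaction test (-2.84, limma adjusted p = 0.0309); the response of Pck1 was 0.76 in wild-type, which was not called, and -2.08 in knockout, where the lactating arrays are below background, so the size is not exact. That call ended in 10 of the 16 fits that left out 1 array.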

How the results depend on the processing

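Counts of the 10 genes called were 7 for lactation in wild-type and 4 for lactation in knockout. They were 4 with quantile normalization (wild-type, 51.1% of all genes called against 50.3%), 7 with array weights (knockout, 60.2% against 44.1%), and 0 and 0 with slide 2 alone, where 86 and 0 of all genes passed. Each slide alone has 8 arrays, and with slide 1 alone 5561 and 6168 of all genes passed. Slide 2 holds nulliparous wild-type replicate 3 and nulliparous knockout replicate 4. The cause of the gap between the slides was not tested. Leaving out 1 array gave 5 to 7 in wild-type (6234 to 7500 of all genes against 7071), 3 to 6 in knockout (4802 to 7494 against 6204), and 0 to 0 for the genotype comparisons and the interaction. Of 1400 values of the 10 genes under alternatives, 1350 kept their side of the threshold, 34 lost it, 16 gained it and 0 called values turned sign. All losses and gains were in the lactation comparisons. In wild-type 253 of 280 values kept their side, 21 lost it and 6 gained it. In knockout 257 of 280 kept it, 13 lost it and 10 gained it. The genotype comparisons and the interaction had no calls, and 280 of 280 values in each kept their side. Of the values that were not called, 56 changed sign. Among the pathway genes named, 1954 of 2178 values kept their side of the threshold, 209 lost it and 13 gained it, and Atg7 turned to 0.488 in wild-type and 0.122 in knockout when its probes were averaged. The sign was the same on both slides for 7 of 7 and 4 of 4 called genes, as for 7070 of 7071 and 6198 of 6204 of all genes called, so this is no property of the 10. With the replicate number as a block, 6 and 3 genes were called (Sqstm1 in wild-type and Bnip3 in knockout at adjusted p = 0.0576 each); deviations of same-numbered arrays correlated at -0.139 to 0.176, not all over 0.1, so the samples were treated as unpaired. Of the 16 arrays, 8 correlated best with their own number out of 4, averaged over the other groups. The mean correlation was 0.048 for the same number, 0.021 for another number on the same slide and -0.034 across slides. The replicate number also fixes the slide and the first part of the position on it. Pairing of mice and the array layout therefore cannot be told apart. Over all genes, lower calls in wild-type lactation were 2604, but 1488 with median scaling and 5067 with no filter on dim probes (45.9% of calls higher); in knockout 2612 and 1395. With array weights the genotype calls were 164 higher and 92 lower in nulliparous and 88 and 123 in lactating ventricle, and the interaction gave 27 and 50, none of them among the 10 genes. The causes were not tested. Group and position on the slide cannot be told apart, and the Foxo3 probe, though above background on all 16 arrays, is dim.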
